A study of Macaca fascicularis and Macaca mulatta and Papio anubis with 20 samples.

Results

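Collagens are the triple-helical proteins that give connective tissue its strength, and each collagen chain is encoded by its own gene. The set described here holds every gene of the long-tailed macaque (*Macaca fascicularis*) features whose symbol names a collagen chain (COL, a type number, A and a chain number). It holds 36 of the 22000 features, of which 15068 carry a symbol. The genes were followed in dorsal root ganglia, which house the cell bodies of sensory neurons next to the spinal cord.

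The fibrillar collagens (types I, II, III, V, XI, XXIV and XXVII) assemble into the cross-banded fibres of the epineurium, perineurium and endoneurium, the sheaths around and inside a nerve. Type IV collagen builds the sheet-like network of basement membranes, which surround every Schwann cell, satellite glial cell and blood vessel. Fibril-associated collagens (types IX, XII, XIV, XVI, XIX and XX here) coat the surface of fibres and link them to other matrix molecules. In peripheral nerve, fibroblasts are the known main source of types I and III, and Schwann cells make type IV and type V chains.

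The ganglia were measured with Visium, in which a tissue section lies on a slide of barcoded capture spots and captured polyadenylated transcripts are told apart by unique molecular identifiers (UMIs). One spot covers a patch of tissue with several cells, often of more than 1 type. Fresh frozen ganglia from a commercial supplier were cut at 10 µm, sections of one ganglion lay 100 µm apart, and permeabilization took 12 min. Of the 20 sections, 16 were labelled *M. fascicularis*, in 4 groups of 4 sections: a female and a male title code in batch 1, and a female and a male title code in batch 2. A title code was taken as 1 specimen, and no treatment or genotype was labelled. The labels do not say what differed between batches, and each batch holds other specimens. Software version went with the batch too, at Space Ranger 2.0.0 in batch 1 and 2.1.0 in batch 2 where a version was given. Batch, specimen and software version thus cannot be told apart.

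A further 2 sections were labelled *M. mulatta* and 2 *P. anubis*, all in batch 2, without a sex and with 1 title code each. The gene identifiers in these 4 sections carry the prefix of the other of these species, so their labels or files may be crossed, and the text says only how sections were labelled. The *M. fascicularis* sections held 1136433 to 7073134 UMIs under tissue. Those labelled *M. mulatta* held 190376 and 264661, and those labelled *P. anubis* 595020 and 12595205. Levels are given as CPM, the UMIs of a gene per 1000000 UMIs of its section. The neuron list, 12 genes such as STMN2 and NEFL of which 10 were matched by symbol, took 19097 to 35215 CPM in the *M. fascicularis* sections, so neuronal markers of the labelled tissue were present in each.

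By role, 11 members are fibrillar, 7 fibril-associated and 6 basement membrane chains. The rest are 4 transmembrane chains, 3 beaded-filament chains (type VI), 3 short-chain network chains (types VIII and X) and 2 others (types XXVI and XXVIII). A further 8 known chain genes were not found by symbol in *M. fascicularis* (COL6A1, COL6A2, COL7A1, COL9A3, COL15A1, COL18A1, COL21A1 and COL22A1) and were not analysed there. At least 1 UMI was counted for 34 members, while COL8A2 and COL23A1 had none in 16 sections. The filter on low counts left 22 members for the comparison of batches. The 14 that did not pass, COL2A1, COL6A3, COL13A1, COL24A1 and COL4A3 among them, each stayed at a mean of 0.604 CPM or less over the 16 sections.

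Collagen transcripts were far scarcer in batch 2 than in batch 1, most of all those of types I and III. The 36 genes together took 1040 ± 325 CPM in the female and 896 ± 141 CPM in the male specimen of batch 1 (SD, n = 4 sections each). In batch 2 they took 196 ± 13.2 and 216 ± 40.5 CPM (SD, n = 4 each). Sections of batch 1 ran from 556 to 1230 CPM and those of batch 2 from 185 to 274 CPM, so the batches did not overlap. Without COL1A1, COL1A2 and COL3A1 the set took 328 ± 36.8 CPM in batch 1 and 191 ± 23.4 CPM in batch 2 (SD, n = 8 each). Of 22 members tested, 7 fell in batch 2 and none rose (edgeR's quasi-likelihood test on the 4 specimen sums, adjusted p under 0.05), where 1.61% of all 12650 genes tested fell, 1.26% rose and 2.88% were called in either direction. Leaving out the male batch 2 specimen's section 1 or section 2 left 3 such members, and leaving out the female batch 1 specimen's section 4 gave 11. A log2 fold change below 0 was found for 20 of the 22 members and for 50.9% of all genes, and the median was -1.18 over the members and -0.01 over all genes. In such sums over a section, fewer cells of a type and less RNA per cell cannot be told apart.

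**Figure D1:**
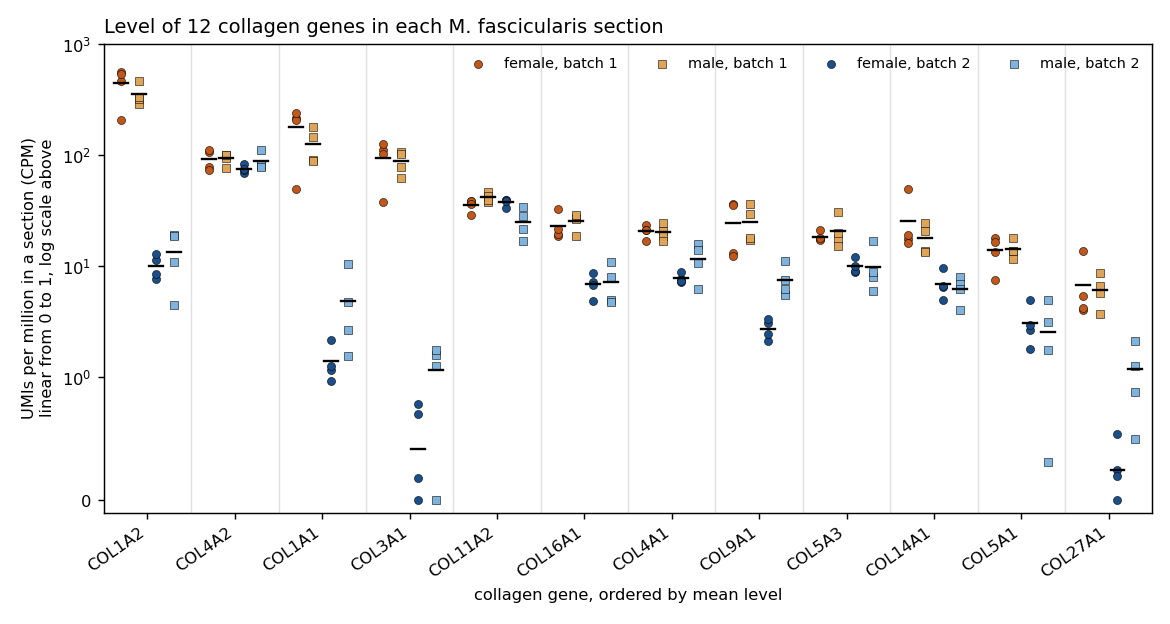
CPM (UMIs per 1000000 of the section) of the 12 collagen genes described in full, 1 point per section, by specimen (circles female, squares male; orange batch 1, blue batch 2), with the specimen mean as a bar; the axis is linear up to 1 CPM and logarithmic above. COL1A1, COL1A2 and COL3A1 lie far lower in every section of batch 2, and COL4A2 and COL11A2 overlap between batches.

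COL1A2, which encodes the second chain of type I collagen, ran from 206 CPM over a median of 398 to 564 CPM in the 8 sections of batch 1. In batch 2 it ran from 4.40 over 11.1 to 18.9 CPM. The lowest section of batch 1 lay far above the highest of batch 2. The log2 fold change was -4.90 (SE 0.27, edgeR adjusted p = 1.94e-04). The counts behind this are 13698 UMIs in batch 1 and 311 in batch 2.

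COL1A1, the first and more numerous chain of type I collagen, ran from 49.1 over 162 to 237 CPM in batch 1 and from 0.966 over 1.85 to 10.4 CPM in batch 2. The groups again did not overlap. The log2 fold change was -5.73 (SE 0.48, edgeR adjusted p = 0.00146), from 5323 UMIs to 65. Section 2 of the female batch 1 specimen was low, with 49.1 CPM against 207 to 237 CPM in its other sections.

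COL3A1, whose single chain makes type III collagen of fine reticular fibres, ran from 37.9 over 102 to 126 CPM in batch 1. In batch 2 it ran from 0 over 0.739 to 1.76 CPM, with 17 UMIs in all against 3302. In that batch section 3 of either specimen held no UMI. The log2 fold change was -7.00 (SE 0.38, edgeR adjusted p = 1.94e-04), and the means, 90.9 ± 29.1 and 0.779 ± 0.696 CPM (SD, n = 8 sections each), lay 117-fold apart. These 3 genes kept their call under all 28 alternatives tried.

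COL1A1 made up 29.1% of the UMIs of both type I chains in the female batch 1 specimen (exact binomial 95% interval 28.2 to 30.0) and 26.8% in the male one (25.9 to 27.7). In batch 2 the share was 12.1% in the female (8.10 to 17.1) and 25% in the male specimen (18.3 to 32.7), so the female specimen of batch 2 lay below the other specimens beyond counting error. The share of COL3A1 in the UMIs of COL3A1 and COL1A2 was 18.5% and 20.4% in batch 1 and 3.90% (1.70 to 7.54) and 7.32% (3.40 to 13.4) in batch 2. Capture can differ between genes, so these shares are set against each other only across specimens, and the intervals cover counting error alone.

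The other fibrillar chains had smaller log2 fold changes. COL5A1, a type V chain that sits inside type I fibres and limits their width, ran from 7.49 over 13.7 to 18.0 CPM in batch 1 and from 0.311 over 2.79 to 4.94 CPM in batch 2. It fell without overlap between sections (log2 fold change -2.21, SE 0.40, edgeR adjusted p = 0.0308). COL27A1, a fibrillar chain of cartilage and other matrices, ran from 3.68 over 5.51 to 13.7 CPM and from 0 over 0.514 to 2.1 CPM. It fell by 3.08 on the log2 scale (SE 0.64, edgeR adjusted p = 0.0488), on only 15 UMIs in batch 2.

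COL5A2 and COL5A3, the other type V chains, had log2 fold changes of -0.85 and -0.91 with adjusted p-values of 0.269 and 0.174. COL11A1 and COL11A2, type XI chains that share the inside of fibres with type V, had -0.41 and -0.19 (adjusted p = 0.567 and 0.747). COL11A2 ran from 28.6 over 38.7 to 46.7 CPM in batch 1 and from 16.7 over 33.8 to 39.3 CPM in batch 2, so its sections overlapped. In all, 5 of the 9 fibrillar members tested fell, with a median log2 fold change of -2.21, and their summed level went from 746 ± 221 to 76.7 ± 11.1 CPM (SD, n = 8 sections each).

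None of the 3 basement membrane chains tested passed the test, although all 3 had log2 fold changes below 0. COL4A2 ran from 72.8 over 97.6 to 110.1 CPM in batch 1 and from 69.0 over 78.8 to 111 CPM in batch 2. The ranges nearly coincide, and the log2 fold change was -0.08 (SE 0.21, edgeR adjusted p = 0.876). COL4A1, its partner in the common type IV trimer, ran from 16.6 over 20.7 to 24.5 CPM and from 6.16 over 8.23 to 15.8 CPM. Its sections did not overlap, yet the test on 4 specimens did not call it (log2 fold change -0.93, SE 0.31, adjusted p = 0.164). The genes of these chains lie side by side in RefSeq's annotation of another assembly of the species and are known to be transcribed from a shared promoter region. COL4A1 took 17.4% (15.7 to 19.1) of the UMIs of both chains in the female and 17.7% (16.1 to 19.4) in the male batch 1 specimen. In batch 2 it took 9.26% (7.88 to 10.8) and 12.0% (9.87 to 14.4).

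COL4A5, an X-linked type IV chain, ran from 10.3 over 15.5 to 22.8 CPM in batch 1 and from 1.86 over 4.54 to 8.40 CPM in batch 2, with an adjusted p of 0.0568 (log2 fold change -1.86, SE 0.40). COL4A3, COL4A4 and COL4A6 had 11, 3 and 1 UMIs over all sections. Together the basement membrane chains took 129 ± 19.99 CPM in batch 1 and 95.6 ± 16.1 CPM in batch 2 (SD, n = 8 each).

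Among the fibril-associated chains COL9A1 and COL16A1 fell. COL9A1, a type IX chain best known from cartilage and the eye, ran from 12.4 over 23.7 to 36.04 CPM in batch 1 and from 2.09 over 4.38 to 11.0 CPM in batch 2 (log2 fold change -2.41, SE 0.41, edgeR adjusted p = 0.0247). COL16A1, found at the edge of fibres and beside basement membranes, ran from 18.5 over 23.8 to 32.3 CPM and from 4.73 over 6.99 to 10.9 CPM (log2 fold change -1.59, SE 0.31, edgeR adjusted p = 0.0420). Neither gene overlapped between batches. COL14A1, which binds fibres together, ran from 13.3 over 18.2 to 49.7 CPM and from 4.04 over 6.58 to 9.62 CPM, also without overlap but with an adjusted p of 0.0604 (log2 fold change -1.43, SE 0.32); it was called in 11 of 28 alternatives.

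In batch 1 COL9A1 also went with the section number. Sections 3 and 4 of both specimens lay at 29.4 to 36.04 CPM and sections 1 and 2 at 12.4 to 18.0 CPM, without overlap, as 7.9% of all genes did in that direction and 9.61% in the other. In batch 2 sections 3 and 4 lay at 2.41 to 6.16 CPM and sections 1 and 2 at 2.09 to 11.0 CPM and overlapped, where 0.609% and 0.727% of genes did not. None of the 11 other genes in the plot by section showed such a split in either batch.

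COL9A2, the partner chain of COL9A1, went the other way without passing the test (log2 fold change 0.50, SE 0.45, adjusted p = 0.603). COL12A1 and COL20A1 had -0.68 and -0.82 with adjusted p-values of 0.684 and 0.362. Of the remaining members tested, COL28A1 had -2.86 (adjusted p = 0.0666), COL8A1 -1.98 (0.112), COL26A1 -0.11 (0.926) and the hemidesmosome collagen COL17A1 0.21 (0.878). Over all tested members, 10 of 22 lay below in every section of batch 2, as did 5.47% of all genes tested.

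**Figure D2:**
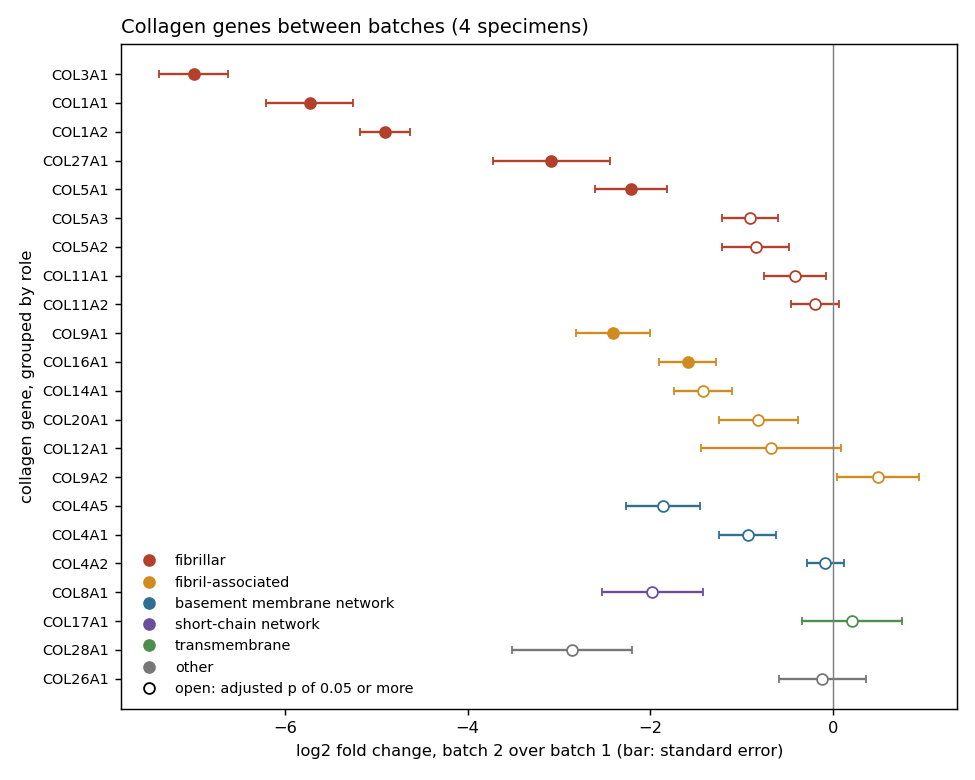
log2 fold change of batch 2 over batch 1 with its standard error for the 22 collagen genes tested, from the edgeR fit on 4 specimen sums, coloured by role; filled points passed the test. COL3A1, COL1A1 and COL1A2 lie between -7.00 and -4.90, while COL4A2, COL11A2 and COL26A1 lie within 0.2 of 0.

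Markers of some other cell types differed between batches too, and those of others differed little. A list of 12 fibroblast genes that holds no collagen took 6171 ± 1519 CPM in batch 1 (3848 to 8090) and 3742 ± 1149 CPM in batch 2 (2084 to 5326), a 1.65-fold difference with overlap. Within it DCN, the small proteoglycan decorin that binds collagen fibres, stood at 728 ± 294 and 268 ± 105 CPM. LUM, lumican, of the same family, stood at 287 ± 143 and 8.70 ± 4.45 CPM, PI16 at 132 ± 52.6 and 5.08 ± 4.51 CPM, and GSN at 751 ± 300.2 and 917 ± 331 CPM. PDGFRA and DPT had means of at most 0.581 CPM in either batch. The myelin list (9 of 10 genes matched) stood at 4696 ± 1576 and 1972 ± 534 CPM, the adipocyte list (7 of 7) at 1311 ± 204 and 3682 ± 1424 CPM, and the endothelium list (9 of 10) at 275 ± 45.4 and 276 ± 74.7 CPM (SD, n = 8 each). The smooth muscle list (9 of 10) stood at 535 ± 298 and 305 ± 126 CPM, and the neuron list at 28569 ± 4726.5 and 26207 ± 5552 CPM. Satellite glia genes (7 of 8) took 4655 ± 1025 and 4253 ± 490 CPM, and macrophage genes (7 of 8) 419 ± 61.1 and 462 ± 105 CPM. The adipocyte list was mostly LPL, at 1270 ± 209 and 3646 ± 1433 CPM. Of its other genes FABP4 stood at 37.1 ± 42.9 and 30.1 ± 46.4 CPM. PLIN1 had means of 3.38 and 2.94 CPM, LEP 0.353 and 0, ADIPOQ 0.0522 and 1.45, CIDEC 0.226 and 1.92, and PLIN4 0 and 0.0388 CPM. The part of these lists in the collagen difference was not tested across sections.

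The difference was also present within compartments of spots, a comparison chosen after the data were seen. A compartment holds spots with at least 200 UMIs, at least 3 UMIs of a marker list, and a share of UMIs on that list in the top 20% of their section. A spot that met this for more than 1 list went only to the list where its share ranked highest, and ties went to none. In fibroblast spots COL1A2 had a log2 fold change of -5.87 (SE 0.60) and COL1A1 of -5.64 (SE 0.54) between batches. With COL3A1 they were the 3 members called lower of 13 tested there, where 0.432% of genes were. In neuron spots 6 of 19 members fell (2.56% of genes), in myelin spots 9 of 14 (3.43%), in smooth muscle spots 3 of 10 (0.335%) and in endothelium spots 5 of 14 (3.42%). COL1A1, COL1A2 and COL3A1 were among those called in each of the 5 compartments. COL1A2 lay between -5.87 and -4.67 on the log2 scale in them, against -4.90 over whole sections. COL1A1 and COL3A1 had few UMIs left in batch 2. COL3A1 had 3 in fibroblast spots, 144-fold below batch 1 per UMI counted there (95% interval of counting error 49.1 to 701), and 0 in myelin spots, at least 79.4-fold below batch 1 at 3 counts over both specimens. COL1A1 had 12 and 1 in the same spots (58.1-fold, interval 33.1 to 113, and 254-fold, interval 45.3 to 10038). COL4A2 lay between -0.94 and 0.04 and was called in none of them. Compartments were ranked within sections and are not matched between batches in marker content. The myelin list took 1.56% to 5.55% of UMIs in myelin spots of batch 1 sections and 0.596% to 1.99% in batch 2. In fibroblast spots, fibroblast genes took 3.15% and 3.01% in batch 1 and 3.12% and 0.963% in batch 2 (female, then male). The part of marker content in these differences was not tested.

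Genes that act on collagen were followed through 5 lists. Of the chain modification and folding genes, 15 of 23 were tested and 2 fell in batch 2: SERPINH1, the collagen chaperone of the endoplasmic reticulum, from 104 ± 45.9 to 30.7 ± 13.6 CPM (log2 fold change -1.86, SE 0.29, edgeR adjusted p = 0.0183), and the prolyl hydroxylase subunit P4HA1 (-1.37, SE 0.27, adjusted p = 0.0434). Of 12 tested genes of procollagen processing and cross-linking, 2 fell: PCOLCE, which speeds removal of the C-propeptide, from 61.0 ± 19.5 to 8.21 ± 3.68 CPM (-2.85, SE 0.27, adjusted p = 0.00300), and the N-propeptide protease gene ADAMTS14 (-2.70, SE 0.56, adjusted p = 0.0493). Of 13 turnover genes the endocytic collagen receptor gene MRC2 and the membrane protease gene MMP15 fell (-1.79 and -1.46, adjusted p = 0.0377 and 0.0171). Of 8 receptor genes ITGA6, a laminin-binding integrin chain, fell (-1.71, adjusted p = 0.0122). Of 10 basement membrane partners such as laminins 0 passed the test in edgeR, and 6 had an unadjusted p under 0.05. Over all genes 1.61% fell, and 18.9% had an unadjusted p under 0.05. No gene tested in these lists was called higher, although some listed genes had higher means in batch 2, such as DDR1 (44.0 ± 7.13 and 73.8 ± 14.1 CPM). The list medians were -0.56, -0.80, -0.09, -0.10 and -0.49 in the order given, against -0.01 over all genes.

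Sex was compared across the same 4 specimens. No member was called between female and male specimens, and 0 members had an unadjusted p under 0.05. That is also the share over all genes: 0% of 12650 passed in edgeR, 169 had an unadjusted p under 0.05, and DESeq2 called 0. The median log2 difference, female over male, was 0.02 over the members. The largest were -0.74 for COL27A1 (SE 0.60) and 0.69 for COL26A1 (SE 0.47). With 2 specimens of each sex, differences of that size could not be separated from the spread.

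Spots were then compared within specimens to place the collagens in the ganglion. Of 18594 *M. fascicularis* spots, 3536 were assigned to the neuron list, 2540 to myelin, 2513 to fibroblasts, 920 to smooth muscle and 744 to endothelium, and 8341 to none. No list contains a collagen. Depth went with the compartment: the middle section's median was 5299 UMIs per spot for neuron spots, 3425 for endothelium, 1040 for smooth muscle, 772 for fibroblast and 584.5 for myelin spots, and its part in the results was not tested. Fibroblast genes took 3.15%, 3.01%, 3.12% and 0.963% of UMIs in fibroblast spots of the 4 specimens (female and male of batch 1, then of batch 2). In myelin spots they took 1.27%, 1.34%, 1.12% and 0.345%, and in neuron spots 0.382%, 0.329%, 0.229% and 0.178%. Smooth muscle spots held 1.58%, 1.55%, 1.87% and 0.459% and endothelium spots 0.967%, 0.755%, 0.518% and 0.292%, against 0.665%, 0.566%, 0.398% and 0.259% over all spots. Sums over spots of 1 specimen were compared with the sums over all its other spots, with the specimen as a block.

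As a share of the UMIs of a compartment, collagens were highest in fibroblast, myelin and smooth muscle spots and low in neuron spots. UMIs per spot ranked otherwise for COL1A2 in the female batch 1 specimen. It had 1269 UMIs in 533 fibroblast spots and 732 in 277 smooth muscle spots. Neuron spots held 1427 of its UMIs in 742 spots, and myelin spots 437 in 545. In fibroblast spots 12 of 20 members tested were higher and none lower, where 16.7% of genes were higher and 12.4% lower. In myelin spots 17 of 21 were higher and none lower, against 13.7% and 14.8% of genes. In smooth muscle spots 12 of 20 were higher and none lower, against 12.3% and 12.4% of genes. Of 23 members tested in any compartment, 18 were higher in at least 1 of these 3, where 21.8% of genes tested in any were, and 9 in all of them, where 5.14% were: COL1A1, COL1A2, COL3A1, COL4A1, COL4A2, COL4A5, COL5A1, COL8A1 and COL14A1. In neuron spots 15 of 21 members were lower, where 22.7% of genes were, and 1 was higher, where 21.2% of genes were.

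**Figure D3:**
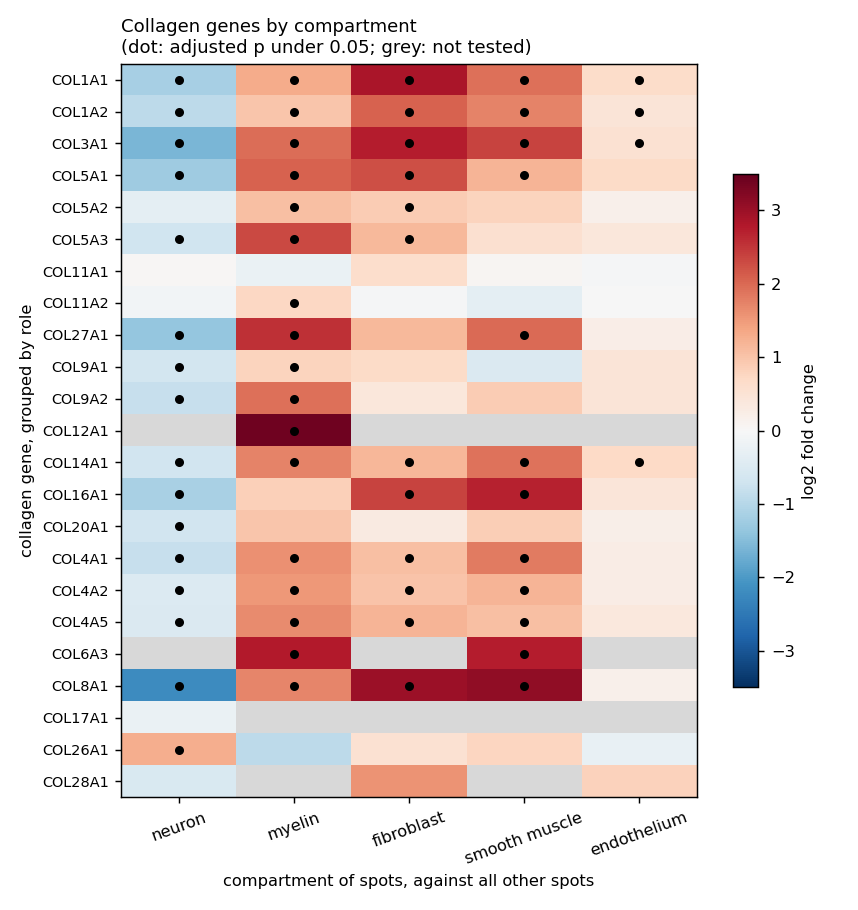
log2 fold change of 23 collagen genes (rows, grouped by role) in the spots of each compartment over all other spots of the same specimens; red is higher, blue lower, a dot marks an adjusted p under 0.05, and grey was not tested. The neuron column is blue for nearly all genes except COL26A1, at 1.26, and the fibroblast column is reddest at COL8A1 (3.00), COL1A1 (2.85) and COL3A1 (2.75).

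In fibroblast spots COL1A1 stood at 919 and 691 CPM in the batch 1 specimens, female and male, and at 14.8 and 12.5 CPM in batch 2, against 139, 102, 0.974 and 2.07 CPM in their other spots. It was thus higher in fibroblast spots of every specimen, at both levels of expression (log2 fold change 2.85, SE 0.20, edgeR adjusted p = 4.56e-10). Its counts in these spots were 658, 538, 7 and 5 UMIs. COL3A1 stood at 525 and 470 CPM in batch 1, against 76.3 and 72.7 CPM elsewhere (2.75, SE 0.19, adjusted p = 2.1e-10). COL8A1, a short-chain collagen of vessel walls and corneal membranes, had the largest difference there (3.00, SE 0.45), on 9, 19, 3 and 2 UMIs within the compartment of the 4 specimens. COL16A1 had 2.36, COL5A1 2.25 and COL1A2 2.07 (SE 0.22, 0.32 and 0.21).

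In myelin spots the order of genes was another. COL12A1 led with 3.40 (SE 0.70, edgeR adjusted p = 4.27e-04), on 3, 5, 4 and 0 UMIs in the compartment, followed by COL6A3 with 2.79 (SE 1.02, adjusted p = 0.0403), on 2, 1, 2 and 0 UMIs and with the call lost in 3 of 7 alternatives, and COL27A1 with 2.54 (SE 0.41). COL5A3, a type V chain known from Schwann cells and other tissues, stood at 89.2, 99.7, 36.8 and 20.6 CPM in myelin spots of the 4 specimens and at 15.7, 16.9, 9.12 and 7.80 CPM elsewhere, higher in each (2.31, SE 0.22). Its counts in myelin spots were 49, 59, 15 and 6 UMIs. COL4A2 stood at 289.5, 345, 140 and 168 CPM in myelin spots and at 89.3, 82.1, 73.2 and 75.5 CPM elsewhere (1.53, SE 0.16). COL4A1 had 1.59 (SE 0.23).

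Myelin and fibroblast spots were also set against each other directly, a comparison added after the data were seen. Of 14 members tested, COL5A3, COL11A2 and COL4A2 were higher in myelin spots, where 3.46% of genes were, with log2 fold changes of 1.13, 0.81 and 0.56 (SE 0.22, 0.22 and 0.17). COL16A1, COL1A1 and COL1A2 were lower, where 3.12% of genes were, with -1.36, -1.18 and -1.02 (SE 0.25, 0.20 and 0.15). COL3A1 had -0.56 with an adjusted p of 0.0738, and COL5A1 -0.04. COL4A2 was not higher in every specimen: in the female one of batch 2 it stood at 139.9 CPM in myelin and 159 CPM in fibroblast spots. Its call was lost in 4 of 7 alternatives, that of COL11A2 in 3 and that of COL5A3 in 1. DESeq2 called 0 members higher and 2 lower, and without either batch 1 specimen 3 members were called.

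In smooth muscle spots the largest differences were those of COL8A1 (3.10, SE 0.46), COL6A3 (2.76, SE 1.06) and COL16A1 (2.70, SE 0.22). The value of COL6A3 rests on 2, 2, 0 and 0 UMIs in these spots, and its call was lost in 2 of 6 alternatives. COL16A1 stood at 116, 153, 33.8 and 33.8 CPM there, on 61, 83, 7 and 3 UMIs, and at 17.7, 20.4, 6.40 and 4.92 CPM elsewhere. Set directly against fibroblast spots, also a comparison added later, COL1A1 was the 1 member of 14 called, lower at -0.64 (SE 0.12, edgeR adjusted p = 2.89e-04), where 1.24% of genes were lower and 1.18% higher. COL4A1 had 0.87 (SE 0.26) with an adjusted p of 0.0502. Without the female specimen of batch 1 there was no call, and without the female or male specimen of batch 2 there were 3 and 4.

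Endothelium spots differed little. Of 20 members, 4 were higher, where 3.89% of genes were, and none lower, where 2.79% of genes were. The 4 are COL14A1 (0.69, SE 0.19), COL1A1 (0.65, SE 0.09), COL3A1 (0.52, SE 0.12) and COL1A2 (0.44, SE 0.07). COL4A1 and COL4A2, chains of the vessel's own basement membrane, had 0.26 each with adjusted p-values of 0.543 and 0.0809. Without the male specimen of batch 1, 1 member was called.

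COL26A1 was the exception among neuron spots. It stood at 7.37, 5.24, 7.90 and 3.57 CPM there and at 3.06, 3.07, 2.80 and 1.88 CPM in the other spots, higher in every specimen (log2 fold change 1.26, SE 0.20, edgeR adjusted p = 5.62e-05). Its counts in neuron spots were 42, 36, 65 and 5 UMIs. COL11A1 and COL11A2 had 0.04 and -0.10 in neuron spots (SE 0.13 and 0.08, adjusted p = 0.831 and 0.363). The largest negative values were those of COL8A1 (-2.19, SE 0.37), COL3A1 (-1.60, SE 0.11) and COL27A1 (-1.35, SE 0.28).

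Whether these spatial differences themselves differed between batches was tested as an interaction. No member was called in neuron spots (0.0922% of genes were), myelin spots (0.27%), fibroblast spots (0%), smooth muscle spots (0.0451%) or endothelium spots (0%). In the same order, 4, 4, 1, 2 and 0 members had an unadjusted p under 0.05 in edgeR. The shares above are of adjusted calls, and no share of all genes at the unadjusted threshold was set beside these counts. The low counts of batch 2 limit this test: COL3A1 had 3 UMIs in all fibroblast spots of that batch and none in its myelin spots.

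**Figure D4:**
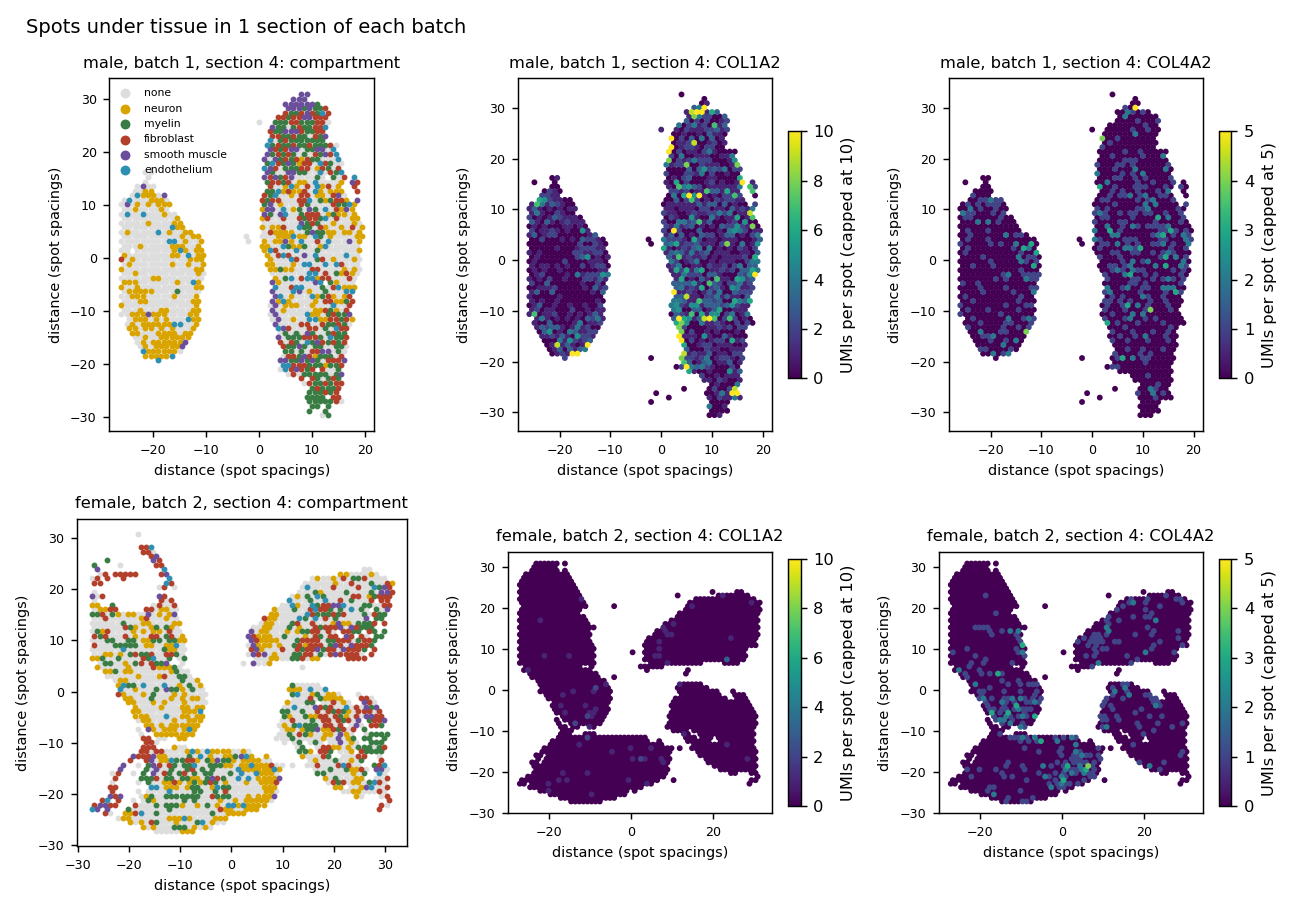
Spots under tissue in section 4 of the male batch 1 specimen (top) and section 4 of the female batch 2 specimen (bottom), axes in spot spacings: compartment (left, colours in the key), UMIs per spot of COL1A2 (middle, capped at 10) and of COL4A2 (right, capped at 5). COL1A2 is seen in 63.8% of spots in the upper section and 2.77% in the lower one, and COL4A2 in 28.1% and 15.1%. The sections differ in depth, with a median of 2481 UMIs per spot in the upper and 733 in the lower one.

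The maps of one section of each batch show the contrast in COL1A2 by spot. In the male section of batch 1 shown, 930 of 1458 spots held a COL1A2 UMI and 1 spot held as many as 24. In the female section of batch 2 shown, 58 of 2092 spots did, with at most 3. COL4A2 was seen in 410 and 316 spots and DCN in 1078 and 989. These sections also differed in depth, with a median of 2481 and 733 UMIs per spot, and COL4A2 stood at 76.1 and 75.4 CPM in them. The part of depth in detection by spot was not tested.

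Most called genes of the partner lists followed the collagens over spots. In fibroblast spots 10 of 14 modification and folding genes were higher, among them the isomerase genes FKBP14 and FKBP10 (1.51 and 1.33). Of processing genes 6 of 9 were higher, among them PCOLCE and fibronectin, FN1 (2.90 and 2.13). Of turnover genes 9 of 13 were higher, among them the gelatinase MMP2 and MRC2 (3.15 and 2.71), and of basement membrane partners 7 of 9, among them the laminin chains LAMA2 and LAMB2 (2.08 and 1.72). Of receptors 5 of 8 were higher, among them the collagen-binding integrins ITGA10 and ITGA11 (2.85 and 1.89), and ADGRG1 was lower (-0.85). In myelin spots 6 of 13, 4 of 10, 6 of 11, 3 of 8 and 7 of 9 genes of the lists of folding, processing, turnover, receptors and partners were higher. The higher ones include the prolyl hydroxylase P3H2 (2.31), the propeptide protease TLL1 (2.39), MMP15 (1.76), ITGA6 (1.90) and DAG1, dystroglycan (2.09). Lower in myelin spots were 1 turnover and 1 receptor gene. In neuron spots 9 of 14, 6 of 11, 9 of 13, 4 of 8 and 7 of 10 were lower, while 1 turnover and 2 receptor genes were higher. Some of these genes were sparse over whole sections. MMP2 had means of 0.354 CPM in batch 1 and 0.732 CPM in batch 2, and TLL1 of 2.20 and 0.753 CPM. All values for spots are edgeR log2 fold changes called over all genes, to be read against the shares of all genes given above.

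Spatial autocorrelation was read from Moran's I, which is near 0 for a gene scattered at random over spots and positive where adjacent spots have similar values, and from its adjusted p, both in the authors' deposited tables. These tables, deposited by the authors, list 34 members, of which 4 have an adjusted p under 0.05 in 8 or more of the 16 sections: COL1A1, COL1A2, COL3A1 and COL4A2. Of all 17322 genes listed, 8.69% do so. Without any 1 of 7 batch 1 sections, all but section 4 of the male specimen, the count of members was 2. In the authors' deposited tables COL1A2 had an I of 0.0321 to 0.367 in batch 1, with a median of 0.193, and passed in 8 of 8 sections. In batch 2 its I lay between -0.00549 and 0.0214, and it passed in 1 of 8. COL1A1 had medians of 0.163 and -0.00143, COL3A1 0.123 and -0.00112, and COL4A2 0.0429 and 0.00109 in those tables. COL16A1 passed in 7 of 8 sections of batch 1 and in none of batch 2. Counting all members, 6 to 9 passed in a section of batch 1 and 0 to 4 in a section of batch 2. The share of all genes per section was not set beside these counts, so they are not read as particular to collagens. Some passes rest on few counts, such as that of COL12A1 on 2 UMIs in section 1 of the female batch 1 specimen. The score was read from far fewer UMIs in batch 2, 5 to 65 per section for COL1A2 against 879 to 3120.

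Across labelled species, 33 members share a symbol in all files, and levels were set as CPM over 13089 shared symbols. A gene was counted as apart when its mean lay at least 4-fold from that of the *M. fascicularis* sections on the log2(CPM + 1) scale with no overlap of sections. Each other label has 1 specimen, so no test was made. In the sections labelled *M. mulatta* 13 of 33 members were apart, where 33.2% of all shared genes were. Of these members 7 were higher (7.13% of genes) and 6 lower (26.1%). In those labelled *P. anubis* 7 members were apart (14% of genes), 2 higher (6.49%) and 5 lower (7.49%). The latter count was 11 apart without the deeper of the sections labelled *P. anubis* and 1 with a pseudocount of 5, both without a share of all genes beside them. Each label was read against its own annotation, which cannot be told apart from the tissue.

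**Figure D5:**
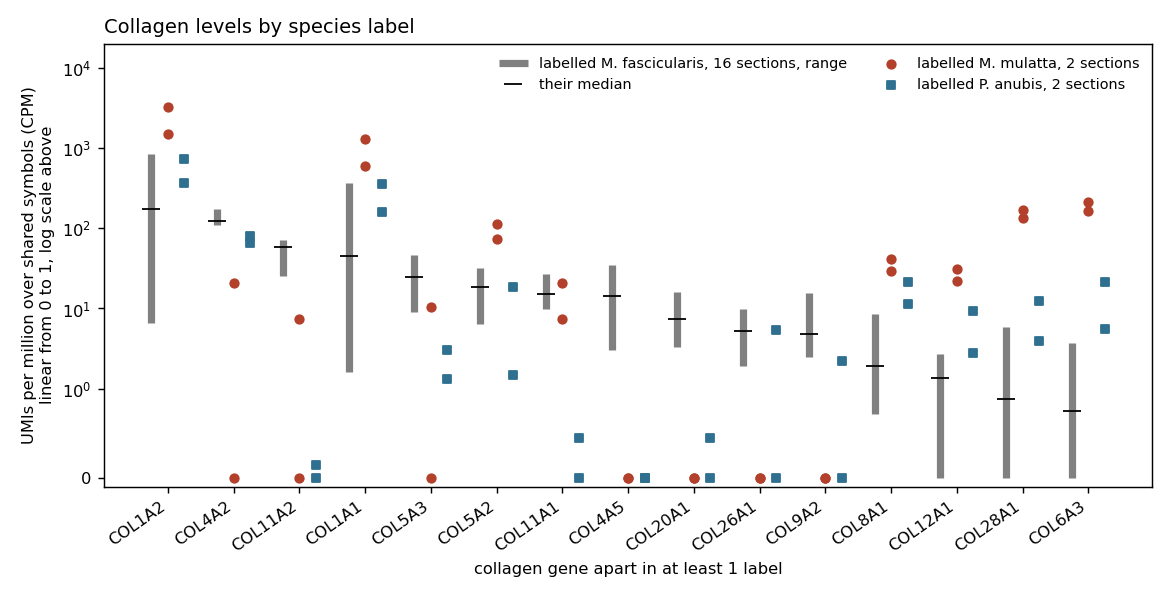
CPM over shared symbols of the 15 collagen genes apart in at least 1 label: the range (bar) and median (dash) of 16 *M. fascicularis* sections, and single sections labelled *M. mulatta* (circles) and *P. anubis* (squares); the axis is linear up to 1 CPM. COL6A3, COL28A1 and COL8A1 lie higher in the sections labelled *M. mulatta*, and COL4A2 lies lower in the sections labelled *M. mulatta*.

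Besides COL1A1 and COL1A2, the members counted as higher in the sections labelled *M. mulatta* were COL5A2, COL6A3, COL8A1, COL12A1 and COL28A1. COL12A1 rests on 3 UMIs in either section and COL8A1 on 4. COL6A3, the third chain of the type VI beaded filaments that link cells to fibres, stood at 0 to 3.74 CPM in *M. fascicularis*. It stood at 165 and 214 CPM in the sections labelled *M. mulatta* and at 21.4 and 5.58 CPM in those labelled *P. anubis*. All 4 lay above the 16. COL8A1 stood at 0.717 to 8.47 CPM, then 41.2 and 29.6, then 21.4 and 11.3 CPM in the same order, again with no overlap. COL28A1, a type known from peripheral nerve, stood at 0 to 5.86, then 134 and 170, then 12.2 and 3.97 CPM.

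In the other direction COL4A2 stood at 112 to 174 CPM in *M. fascicularis* and at 20.6 and 0 CPM in the sections labelled *M. mulatta*, below the whole range even at the 22.2 CPM that a count of 0 allows. COL11A2 stood at 25.3 to 71.6 CPM in *M. fascicularis*, on 0 and 1 UMIs in the sections labelled *M. mulatta* and on 0 and 1 UMIs in those labelled *P. anubis*. The last of these held 6804903 shared UMIs, so 1 UMI is 0.147 CPM. COL4A5, at 3.06 to 34.7 CPM in *M. fascicularis*, had no UMI in the other 4 sections, where a count of 0 allows up to 30.9, 22.2, 9.17 and 0.441 CPM. Only the last limit lies below the whole *M. fascicularis* range. For the same reason COL4A5, COL9A2, COL11A2, COL20A1 and COL26A1, counted as lower in the sections labelled *M. mulatta*, were not detectably below the *M. fascicularis* range in both sections at that depth. In the sections labelled *P. anubis* COL5A3 stood at 3.06 and 1.32 CPM, COL11A1 at 0 and 0.441 CPM and COL20A1 at 0 and 0.441 CPM, against *M. fascicularis* minimums of 9.07, 9.94 and 3.30 CPM. In the shallower of these sections the limit of 9.17 CPM lies below the minimum only for COL11A1, and COL5A3 and COL20A1 were detectably lower in the deeper section alone.

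Type I collagen was not low in every section labelled batch 2. COL1A1 stood at 607 and 1294 CPM in the sections labelled *M. mulatta* and at 361 and 161 CPM in those labelled *P. anubis*, against 231 ± 105 CPM in *M. fascicularis* batch 1 and 4.89 ± 4.97 CPM in its batch 2 (SD, n = 8 each, over shared symbols). COL1A2 stood at 1513 and 3253, at 725 and 371, and at 608 ± 194 and 18.6 ± 7.99 CPM in the same order. COL3A1 stood at 72.1 and 111 and at 110.1 and 57.6 CPM, between 139 ± 44.5 and 1.22 ± 1.07 CPM. All 4 sections were processed with Space Ranger 2.0.0, per the file headers. The fibroblast list took 30279 and 57286 CPM in the sections labelled *M. mulatta* and 21689 and 11849 CPM in those labelled *P. anubis*, above or within the 3202 to 12454 CPM of *M. fascicularis*. The neuron list took 14362 and 6202 CPM in the sections labelled *M. mulatta*, below the 26840 to 45345 CPM of *M. fascicularis*, and 32591 and 48783 CPM in those labelled *P. anubis*. The part of either list in the collagen levels was not tested. Against the batch 2 sections alone, 12 members were apart in the sections labelled *P. anubis* and 15 in those labelled *M. mulatta*. With fewer sections to lie clear of, any gene is apart more easily. The share of all genes was not set beside these counts.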

How the data were processed

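Visium libraries of 20 sections were analysed. Per the file headers, the authors made UMI counts per gene and spot with Space Ranger 2.0.0 (*M. fascicularis* batch 1 and the other labels) or 2.1.0 (*M. fascicularis* batch 2). No version was given for section 3 of the male batch 2 specimen. Gene tables deposited by the authors give the summed counts, Moran's I as a score, its p-value and adjusted p-value, and a normalized signal (median normalized average counts) that was not used. The submitters' processing notes name the build Mmul_10 for every sample, although the *M. fascicularis* identifiers are those of that species, so the aligned genome is uncertain. For section 3 of the male batch 2 specimen only its gene table was used, without spots; in the other 19 sections table and matrix differed for 0 genes.

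Counts were summed per specimen and tested with edgeR 4.0.16 (R 4.3.3; TMM, filterByExpr, quasi-likelihood, sex and batch as terms, Benjamini-Hochberg adjustment over all genes tested). Compartments were fitted with the specimen as a block. Adjusted p-values under 0.05 were called, and standard errors were taken from the F statistic. DESeq2 1.42.0 was run as an alternative. Tables were handled in Python 3.11.15 with pandas 2.3.3, numpy 2.4.6 and scipy 1.17.1. The fits were tested on simulated counts. Spots with under 200 UMIs were left out of compartments, and doublets were not called, since a spot is a region.

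The labels do not say whether sections or title codes are separate animals, so p-values speak only for these specimens. For batch and sex they draw on dispersion estimated over all genes, since 4 specimen sums leave little spread to measure for a single gene. No pair of sections in a group was alike within sampling noise (lowest chi-square per degree of freedom 3.93 over genes with at least 20 counts, 26 pairs). Barcodes are slide positions, and a median of 56.8% of them was shared between sections. Intervals and limits from a count of 0 (3 counts) cover counting error only. The members and lists were chosen with earlier results of these data known. Described in full were the 10 members with the highest mean, those called between batches or sexes, and per compartment at most 3 called in each direction by size of change; of partner genes at most 2 per list, comparison and direction; markers where a result turned on them. Alternatives were other size factors, DESeq2, no filter, sections as samples, thinned depth, other spot limits and left-out sections or specimens. No genome sequence was used.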

Additional observations from a re-analysis of the deposited data

Results flagged for a closer look

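Within groups of 4 sections, 52 were checked for a section apart from the other 3, and 5 were found; chance gives about 1 in 20. COL14A1 stood at 49.7 CPM in section 1 of the female batch 1 specimen, against 16.01 to 19.2 CPM in its other sections. COL27A1 stood at 13.7 CPM in the same section, against 3.98 to 5.37 CPM. In section 2 of that specimen COL1A1 was low at 49.1 CPM, against 207 to 237 CPM, and the summed collagen level was 556 CPM, against 1147 to 1230 CPM. COL4A2 stood at 111 CPM in section 3 of the male batch 2 specimen, against 77.4 to 80.9 CPM; that section is the one without spots.

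Chain genes that carry no symbol in the *M. fascicularis* features were counted in section 2 labelled *P. anubis*. It held 1640 UMIs of COL6A2, 434 of COL18A1, 145 of COL6A1 and 39 of COL15A1, each above the 0.238 CPM that a count of 0 allows there. These genes were not analysed in *M. fascicularis*, so no level was compared.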

How the results depend on the processing

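COL1A1, COL1A2 and COL3A1 kept their call between batches under the 28 alternatives run. COL16A1 lost it in 8 and COL5A1 in 5 of 28, COL27A1 in 8 of 25 and COL9A1 in 3 of 27, while COL14A1 gained it in 11 of 28, COL5A3 in 3 of 27 and COL4A1 in 2 of 28. Between batches 7 members (364 genes) were called; it was 11 (1279 genes) without a filter, 14 (4345) with sections as samples and no replicate block, 15 (4448) with the replicate block, 3 in fibroblast and 3 in smooth muscle spots only, and 3 to 11 (115 to 942 genes) leaving out 1 section. Leaving out section 1 or 2 of the male batch 2 specimen gave the 3, and section 4 of the female batch 1 specimen the 11. COL4A2 turned to 0.041 in neuron spots only. Between sexes 0 members were called under the alternatives run. In neuron spots 16 members became 0 (189 genes) without a specimen block and 6 (2886) with the replicate block in place of the specimen. In myelin spots 17 became 4 (704) and 11 (3090) in the same order. Without a specimen block 12 became 3 (553) in fibroblast and 4 (419) in smooth muscle spots. In endothelium spots 4 became 2 with DESeq2, 0 (4 genes) without a block, 0 (41) with the replicate block, 7 (1208) in the top 10% of spots and 1 to 4 leaving out 1 specimen, lowest without the male batch 1 specimen. Myelin against fibroblast spots gave 6, 2 with DESeq2 (177 genes against 490) and 3 to 7 leaving out 1 specimen, 3 without either batch 1 specimen. Smooth muscle against fibroblast spots gave 1, 0 with DESeq2 (31 genes against 182) and 0 to 4 leaving out 1 specimen, 0 without the female batch 1 specimen. For sections labelled *P. anubis* 7 members apart became 1 at a pseudocount of 5, 12 against batch 2 only, and 7 to 11 leaving out 1 section. For Moran's I 4 became 0 with an I of at least 0.1, 7 in batch 1 only, 0 in batch 2 only and 2 to 4 leaving out 1 section. For the labels and for Moran's I, no share of all genes was set beside these alternative counts. Over features with a symbol the summed level was 1114 CPM in the male batch 1, 255 in the female batch 2 and 274 CPM in the male batch 2 specimen. Of 569 values of single genes under alternatives, 491 kept direction and side of the threshold, 61 lost and 16 gained the call, and 1 reversed. The causes were not tested, except that fewer samples or genes enter some fits by construction. Section numbers did not meet the rule for pairing specimens: 9 of 24 same-numbered pairs correlated above 0.1 (-0.11 to 0.46, 10437 genes), and 2 of 16 sections correlated best with their own number, although in batch 1 sections 3 and 4 of both specimens lay above sections 1 and 2 without overlap for 7.9% and below for 9.61% of genes. Low counts limit batch 2, where COL3A1 rests on 17 UMIs.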

Other observations

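Members that lie next to each other were followed side by side, from RefSeq's annotation of another assembly of the species. COL3A1 and COL5A2 are such neighbours. Between batches their log2 fold changes were -7.00 (SE 0.38) and -0.85 (SE 0.37), and COL5A2 ran from 11.2 over 15.0 to 21.1 CPM in batch 1 and from 3.91 over 7.86 to 13.3 CPM in batch 2. In fibroblast spots COL3A1 and COL5A2 were both higher, at 2.75 and 0.89 (SE 0.19 and 0.29). COL9A1 and COL19A1 are neighbours too, with 1063 and 2 UMIs in the 16 sections.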
